A study of Danio rerio with 6 samples.

Results

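The genes described here are 10 zebrafish genes of the interferon response: isg15, usp18, trim25, ifi35, xaf1, mxa, rsad2 and isg20, whose products act downstream of interferon, and ifih1 and dhx58, which encode RNA sensors. They were taken by name from a table of 31743 genes, and all 10 were present. The list was chosen from earlier results on the same libraries, with the difference between the genotypes known, so that difference is given here as a description. No p-value is printed for these genes, and which of them pass the threshold in the fit of all genes is reported only as a count that the choice of genes has shaped. The libraries came from EGFP-positive germ cells of TL-strain fish aged 21 days post fertilization. The protocol gives about 300 sorted cells for each genotype and does not say whether that is the number in each library. All fish carried a foxl2l:egfp transgene, in which the promoter of the forkhead factor gene foxl2l drives the reporter. The foxl2l-/- group had 3 libraries and the foxl2l+/+ group had 3, and the series asks what foxl2l does as young germ cells turn toward oocyte meiosis. The labels do not say whether libraries of a genotype came from separate fish, so the spread between them may be technical.

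Cells detect foreign or misplaced RNA with helicase sensors of the RIG-I family, which include MDA5 (ifih1) and LGP2 (dhx58). In vertebrates RIG-I and MDA5 signal through the mitochondrial adaptor MAVS and the kinase TBK1 to interferon regulatory factors, which turn on interferon genes. Secreted interferon acts through receptors and Janus kinases to induce a large set of effector genes. The effectors include a ubiquitin-like modifier (isg15) with its ligases and protease, and dynamin-like GTPases (mxa). They also include enzymes that act on nucleotides (rsad2) or degrade RNA (isg20).

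The libraries held 25176401 to 39189535 counts, and at least 1 count was found for 25910 to 27013 genes. The 8 germ cell markers were detected in every library and took 0.765% to 0.911% of counts in foxl2l+/+ and 0.799% to 1.18% in foxl2l-/- libraries. The targeted gene, listed as zgc:194189, was read in both genotypes. Its CPM ranged from 504 to 743 in foxl2l+/+ and from 806 to 1180 in foxl2l-/- libraries. The labels do not say which part of the gene is altered, so these values do not check the genotype labels. CPM are counts scaled to library size after TMM, a method that corrects for differences in RNA composition. TPM are the authors' values, which correct for gene length and so allow levels of different genes to be compared. They were used without TMM, and on log2(TPM + 1) the tested genes had a median change of 0.19, against 0.048 with TMM. Differences between genotypes in TPM therefore lie somewhat higher than those in CPM. Log2 fold changes are foxl2l-/- over foxl2l+/+ from edgeR's quasi-likelihood fit of all 23576 genes that passed the low-count filter, with its standard error (SE).

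Of the 10 genes, 9 had higher fitted levels in foxl2l-/- cells and isg20 had a lower one. All 10 passed the low-count filter. At an adjusted p below 0.05 in that fit, 6 of the 10 were called higher, 1 was called lower and 3 were not called. Over all tested genes 15.7% were called higher and 15.8% lower. The 3 foxl2l-/- libraries lay entirely above the 3 foxl2l+/+ libraries in CPM for 7 of the 10 genes and entirely below for 1, against 23.9% and 22.8% of all tested genes. Because the genes were chosen on this comparison, nothing is read from these counts. The 10 had a median log2 fold change of 1.78, against 0.048 for the tested genes as a whole. In bulk RNA, a different number of expressing cells and a different RNA level per cell cannot be told apart.

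**Figure D1:**
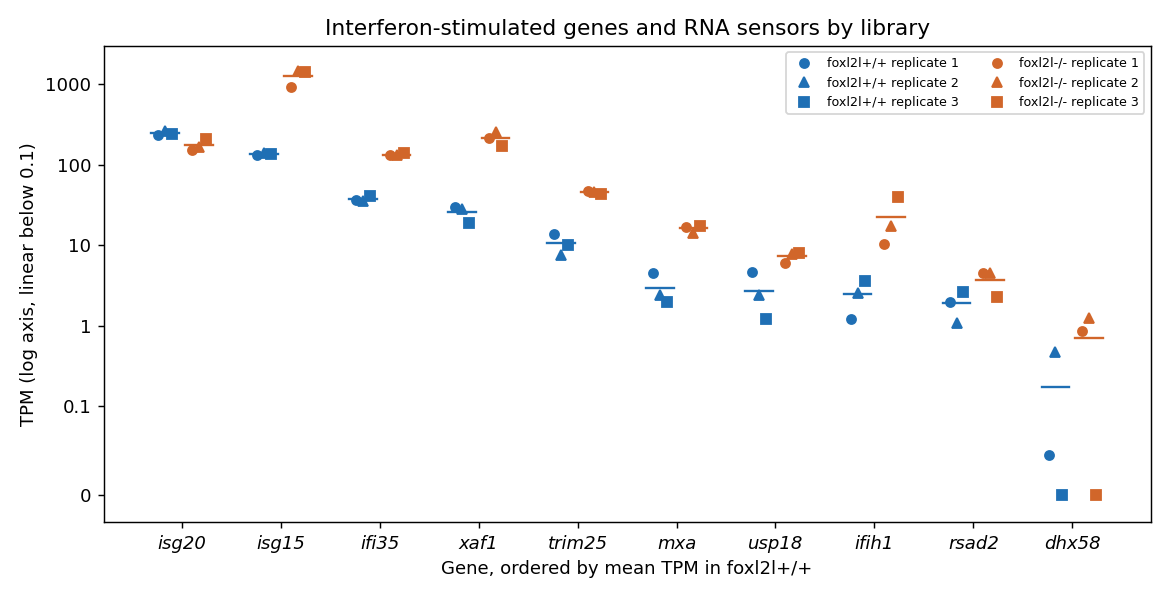
TPM of each of the 10 genes (y axis, logarithmic above 0.1 and linear below) in each of the 6 libraries, with genes ordered by their mean in foxl2l+/+ on the x axis; symbols give the replicate and horizontal lines the mean of 3 libraries. The genotypes do not overlap for isg15, ifi35, xaf1, trim25, mxa, usp18, ifih1 and isg20, while they overlap for rsad2 and dhx58, which was at 0 in replicate 3 of both genotypes.

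Isg15 had the highest level of the 10 genes in the mutant cells. It encodes a protein built of ubiquitin-like domains that is attached to other proteins after interferon exposure. The gene (ENSDARG00000086374) spans 20112032 to 20113284 on the forward strand of chromosome 5 in GRCz11, the build of all positions given here. In replicates 1 to 3 its TPM was 130.5, 139.7 and 135 for foxl2l+/+ and 933, 1483 and 1439 for foxl2l-/-, the order of libraries kept for the other genes. The lowest mutant library was thus several times above the highest foxl2l+/+ library. In CPM the means were 97.8 ± 8.32 in foxl2l+/+ and 772 ± 146 in foxl2l-/- cells (SD, n = 3), and the log2 fold change was 2.98 ± 0.20 (SE). Isg15 made up 28.5% to 29.8% of the summed TPM of the 10 genes in foxl2l+/+ libraries and 61.4% to 69.7% in foxl2l-/- libraries.

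The protease and ligase genes of the ISG15 system had much lower levels than isg15 in both genotypes. Usp18 (ENSDARG00000088078, chromosome 4, 5842433 to 5847937, forward strand) encodes the protease that removes ISG15 from its targets, and in mammals it also dampens signalling at the interferon receptor. Its TPM was 4.58, 2.41 and 1.19 in foxl2l+/+ and 5.97, 7.79 and 8.02 in foxl2l-/- libraries. The groups were separate by a small margin, between foxl2l+/+ replicate 1 and foxl2l-/- replicate 1. With all libraries its log2 fold change was 1.15 ± 0.46 (SE). Without foxl2l+/+ replicate 1 it was 1.67.

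Trim25 (ENSDARG00000104396, chromosome 6, 18388327 to 18400623, reverse strand) encodes a RING-finger ubiquitin ligase that, in mammals, acts on RIG-I and can also attach ISG15. Its TPM was 13.9, 7.49 and 10.1 in foxl2l+/+ and 47.2, 45.8 and 43.8 in foxl2l-/- libraries. The mutant libraries lay within a narrow band in TPM, while in CPM they ran from 69.0 to 87.3. In both units all were above every foxl2l+/+ library. Trim25 had a log2 fold change of 1.88 ± 0.23 (SE). The related gene trim25l, which is not among the 10 and was picked after its values were seen, had a mean of 3.93 CPM in foxl2l+/+ against 3.63 in foxl2l-/- and was not called (adjusted p = 0.854 in edgeR's test).

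Ifi35 and xaf1 were both more abundant than trim25 in each genotype. Ifi35 (ENSDARG00000075643, chromosome 3, 29941777 to 29948955, forward strand) encodes an interferon-induced protein that in mammals pairs with NMI. Its TPM was 36.5, 35.4 and 40.4 in foxl2l+/+ and 131, 130.4 and 140.4 in foxl2l-/- libraries. In CPM it varied less between libraries of a genotype than any other of the 10, with a coefficient of variation of 5.89% in foxl2l+/+ and 5.07% in foxl2l-/- cells. In TPM isg15 and isg20 varied less for their means in foxl2l+/+ cells, and trim25 did in foxl2l-/- cells. The log2 fold change of ifi35 was 1.59 ± 0.17 (SE).

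Xaf1 (ENSDARG00000068939, chromosome 15, 29154547 to 29162261, reverse strand) encodes a zinc-finger protein that binds the apoptosis inhibitor XIAP and promotes cell death in mammalian cells. Its TPM was 30.0, 28.0 and 18.8 in foxl2l+/+ and 214, 257 and 170.2 in foxl2l-/- libraries. The groups were far apart, and replicate 3 was the lowest library in both genotypes. The difference came to 2.81 ± 0.25 (SE) on the log2 scale. In foxl2l-/- cells xaf1 stood between the 96.2 and 97.7 percentile of TPM over all genes of the table, against 80.2 to 85.1 in foxl2l+/+ cells.

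Among the antiviral enzymes, mxa separated the genotypes, rsad2 did not, and isg20 was higher in foxl2l+/+ cells. Mxa (ENSDARG00000021688, chromosome 1, 7562316 to 7570181, reverse strand) encodes a dynamin-like GTPase that traps viral components. Its TPM was 4.52, 2.38 and 1.95 in foxl2l+/+ and 16.9, 14.3 and 17.5 in foxl2l-/- libraries. All mutant libraries lay above all foxl2l+/+ libraries, and the log2 fold change was 2.21 ± 0.34 (SE). Zebrafish have several related Mx genes that could share reads with it, and how the authors assigned such reads is not given in the sources used here.

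Rsad2 (ENSDARG00000004952, chromosome 17, 35357451 to 35361322, reverse strand) encodes viperin, a radical SAM enzyme that in mammals makes a chain-terminating nucleotide. Its TPM was 1.98, 1.09 and 2.64 in foxl2l+/+ and 4.49, 4.45 and 2.25 in foxl2l-/- libraries. The groups overlapped, because foxl2l-/- replicate 3 lay below foxl2l+/+ replicate 3. The log2 fold change was 0.77 ± 0.50 (SE).

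Isg20 (ENSDARG00000079783, chromosome 25, 19095231 to 19100469, forward strand) encodes an exonuclease that degrades single-stranded RNA in mammals. It was the most abundant of the 10 in foxl2l+/+ cells, at 235, 266 and 239.7 TPM, against 154, 166 and 210.4 TPM in foxl2l-/- libraries. The groups did not overlap, with the smallest gap between foxl2l+/+ replicate 1 and foxl2l-/- replicate 3. The log2 fold change from counts was -0.75 ± 0.17 (SE), and it was nearer to 0 on the TPM scale, at -0.49 with a pseudocount of 1. Most of the gene, 5168 bases, overlaps the gene si:dkeyp-19h3.8 on the same strand. That gene held 37 to 303 counts per library, far fewer than the 5340 to 9604 counts of isg20.

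The RNA sensor genes ifih1 and dhx58 differed from each other in level and in spread. Ifih1 (ENSDARG00000018553, chromosome 9, 51147380 to 51217396, forward strand) encodes MDA5, which binds long double-stranded RNA. Its counts were 97, 226 and 197 in foxl2l+/+ and 904, 1472 and 2837 in foxl2l-/- libraries, which is 1.21, 2.53 and 3.58 TPM against 10.5, 17.5 and 39.6 TPM. The mutant libraries were all above the others, but they differed from each other by 3.22 times in CPM, and replicate 3 was the highest in both genotypes. The log2 fold change was 2.91 ± 0.47 (SE), and it was 2.32 without foxl2l-/- replicate 3. The gene overlaps AL954669.1 on the opposite strand over 25262 bases. Reads of the 2 genes in the shared bases cannot be told apart by strand with this library chemistry, and how the authors assigned such reads is not stated. AL954669.1 held 110 to 264 counts per library, about as many as ifih1 in foxl2l+/+ cells, and averaged 6.81 CPM in foxl2l+/+ against 2.98 in foxl2l-/-.

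Dhx58 (ENSDARG00000089463, chromosome 3, 17689419 to 17710221, forward strand) encodes LGP2, a helicase that lacks the signalling domain of the other sensors and modulates them. It had 2, 23 and 0 counts in foxl2l+/+ and 40, 57 and 0 counts in foxl2l-/- libraries. The groups overlapped, and both replicates numbered 3 had no count, which allows a level of up to 0.126 CPM in foxl2l+/+ and 0.077 CPM in foxl2l-/- replicate 3 (3 counts, counting error only). Its log2 fold change was 1.68 ± 1.34 (SE), and without foxl2l+/+ replicate 2 it was 4.44.

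**Figure D2:**
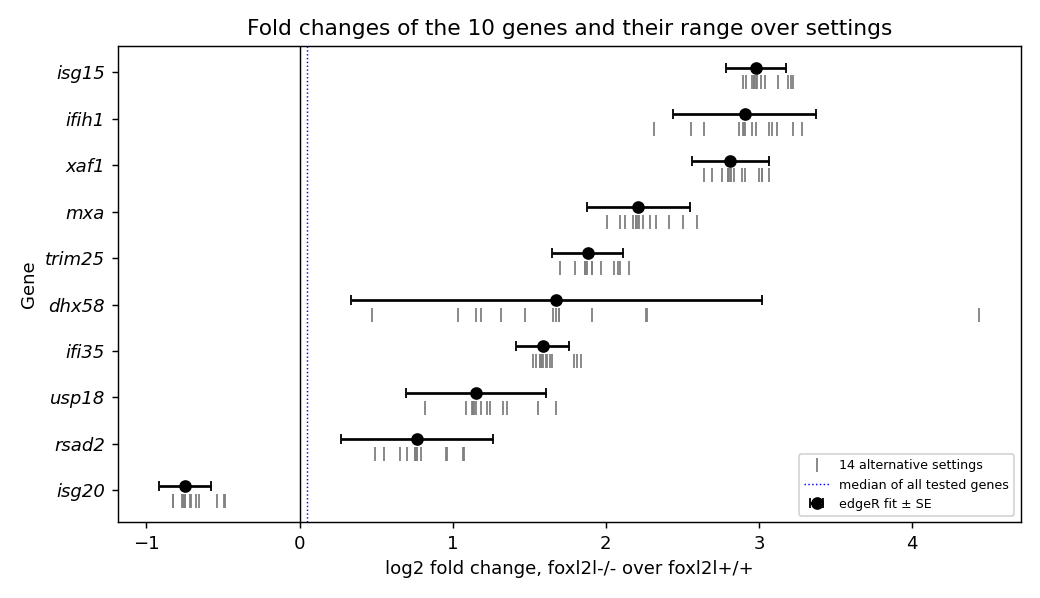
Log2 fold change of each of the 10 genes (x axis, foxl2l-/- over foxl2l+/+) from edgeR with its SE (point and bar) and under 14 alternative settings (ticks); the dotted line is the median of all tested genes, 0.048. Ticks stay close to the point for isg15 and ifi35 and spread from 0.48 to 4.44 for dhx58, and no gene has a tick on the other side of 0.

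The order of levels differed between the genotypes at the top. In foxl2l+/+ cells the mean TPM ran from isg20 (247) through isg15, ifi35, xaf1 and trim25 (10.5), and no neighbours in this order overlapped in range. Below trim25, mxa, usp18, ifih1 and rsad2 (2.95 to 1.90 TPM) each overlapped with the next and could not be ordered. In foxl2l-/- cells isg15 came first at 1285 ± 306 TPM (SD, n = 3), followed by xaf1 at 214 ± 43.2 and isg20 at 177 ± 29.6, which overlapped in range. Ifih1 and mxa also overlapped, and every other pair of neighbours was separate, down to dhx58 at 0.695 ± 0.633 TPM. The summed TPM of the 10 genes, without TMM scaling, was 466 ± 17.3 in foxl2l+/+ and 1905 ± 337 in foxl2l-/- libraries.

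No library of a genotype was highest for most of the genes. Among the foxl2l-/- libraries, replicate 1 was the highest in CPM for 4 genes, replicate 2 for 4 and replicate 3 for 2, and replicate 3 was the lowest for 5. Among the foxl2l+/+ libraries, replicate 1 was the highest for 3 genes, replicate 2 for 4 and replicate 3 for 3. Thus isg15 and xaf1 peaked in replicate 2 of the mutant while ifih1 peaked in replicate 3, where xaf1, rsad2 and dhx58 were lowest. The spread in CPM was wide for several genes of low level, with a coefficient of variation of 153% for dhx58, 60.0% for usp18 and 48.5% for ifih1 in foxl2l+/+ cells.

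The 10 genes lie on 9 chromosomes, with dhx58 and ifi35 both on chromosome 3. Of the 40 nearest tested genes, 2 on each side of each gene, 8 were called higher, 8 lower and 24 were not called, with a median log2 fold change of 0.09. These shares are near the 15.7% called higher and 15.8% called lower over all tested genes, so they are not a result about the neighbours. A pair of neighbours belongs to the interferon response as well. The nucleotide kinase gene cmpk2 lies 1528 bases from rsad2 and rose from 3.37 to 9.46 CPM (log2 fold change 1.48 ± 0.39, SE, adjusted p = 0.0126 in edgeR's test). The groups overlapped for rsad2 itself. Without foxl2l+/+ replicate 2 the call of cmpk2 ended (adjusted p = 0.0522 in the same test). The Mx gene mxb lies 4169 bases from mxa and rose from 8.93 to 22.7 TPM. Cmpk2 was picked after its values were seen.

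**Figure D3:**
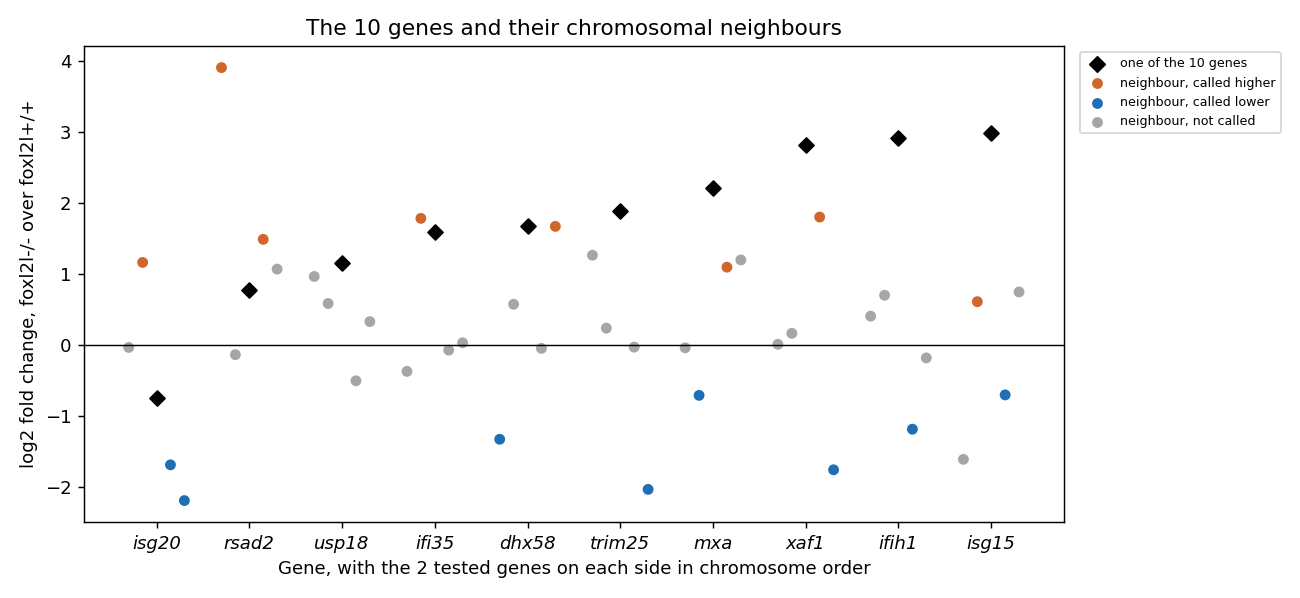
Log2 fold change (y axis, foxl2l-/- over foxl2l+/+) of each of the 10 genes (black diamonds) and of the 2 tested genes on each side of it in chromosome order (circles, coloured by call). Of the 40 neighbours, 8 were called higher and 8 lower, and they lie on both sides of 0 around genes that are themselves high.

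Other genes of the pathway were counted in 3 lists, which were also drawn up with earlier results on these libraries known and are not independent evidence of a direction. The first list holds adaptors, kinases and other nucleic acid sensors. Of 21 genes tested, 5 rose, 3 fell and 13 were not called, with a median log2 fold change of 0.30, against 15.7% higher, 15.8% lower and a median of 0.048 over all tested genes. The double-stranded RNA receptor gene tlr3 rose from 0.723 ± 0.436 to 5.87 ± 0.775 CPM (SD, n = 3), which is 3.01 ± 0.51 on the log2 scale (SE; adjusted p = 0.000878, edgeR's quasi-likelihood test) and 3.61 without foxl2l+/+ replicate 2. Its adaptor gene ticam1 rose by 1.12 ± 0.32 and pkz, a fish kinase with a Z-nucleic acid binding domain, by 2.76 ± 0.38 on the log2 scale. The kinase gene tbk1 rose by 1.73 ± 0.44, with 24.8, 38.5 and 93.8 CPM in foxl2l-/- replicates 1 to 3 and a value of 1.011 without replicate 3, and the signalling ligase gene traf6 by 0.92 ± 0.32.

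The genes that fell in this list were azi2 and tank, which encode partners of TBK1, and the RNA helicase gene ddx3xb, listed as ddx3b. Azi2 went from 15.0 to 3.73 CPM, a log2 fold change of -2.01 ± 0.33 (SE). The levels of mavs, the adaptor through which MDA5 signals, averaged 17.3 ± 3.38 CPM in foxl2l+/+ against 18.9 ± 1.80 in foxl2l-/- (SD, n = 3), and it was not called (log2 fold change 0.12 ± 0.25, SE, adjusted p = 0.752 in edgeR's test). The call of tbk1 ended without foxl2l+/+ replicate 1 or 2, with an adjusted p of up to 0.059 in the same test. Those of ticam1 and traf6 ended without foxl2l+/+ replicate 1 or 2 or foxl2l-/- replicate 1 or 2, and that of tank without foxl2l+/+ replicate 1 or foxl2l-/- replicate 2. Ddx3xb was not called by limma on TPM. Only 2 of 22 genes of the list were called higher without foxl2l+/+ replicate 1, against 2888 of 24240 over all genes. Without foxl2l+/+ replicate 2 it was 2 of 21 against 2708 of 24259. Without foxl2l-/- replicate 1 it was 3 of 22 against 3037 of 24191, and without foxl2l-/- replicate 2 it was 3 of 21 against 2797 of 24131. The shares in these fits are near those of all genes, so they are not a result about the list.

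The second list holds interferon genes, receptors, Janus kinases, interferon regulatory factors, STATs and the feedback inhibitors of the SOCS family. Of 38 genes tested, 19 rose, 1 fell and 18 were not called, with a median log2 fold change of 1.11. Over all tested genes 15.7% were called higher and 15.8% lower. With 1 library left out, 16 to 18 genes of the list were called higher, and the call of the receptor gene crfb4 ended in each such fit. Of the 13 interferon regulatory factor genes 9 rose, among them irf7, the main inducer of interferon genes, from 20.9 ± 5.72 to 99.1 ± 11.9 CPM, and irf10 from 28.3 ± 5.41 to 153 ± 43.5 CPM (SD, n = 3). Irf9, whose product takes part in activating the effector genes, rose by 1.38 ± 0.20 on the log2 scale (SE). Irf3, which acts on interferon genes downstream of TBK1, rose by 2.13 ± 0.41. Of the 8 STAT genes 3 rose and 5 were not called. Stat1b rose from 3.85 to 23.1 CPM, by 2.58 ± 0.44 on the log2 scale (SE), and by 3.17 without foxl2l+/+ replicate 1. Stat1a rose from 34.7 to 56.7 CPM, by 0.71 ± 0.18 on the log2 scale. Stat2 averaged 26.0 CPM in foxl2l+/+ against 33.0 in foxl2l-/- and was not called (0.34 ± 0.26). Of the 4 type I interferon genes, ifnphi1 rose from 2.50 to 9.45 CPM and the other 3 were not called. The Janus kinase gene tyk2 rose by 1.35 ± 0.32, and socs1a rose by 1.41 ± 0.32. Jak1 fell by 0.73 ± 0.20, a call that ended without foxl2l+/+ replicate 2, without foxl2l-/- replicate 2, with library totals and with limma on TPM. Ifnphi1, tyk2, jak1 and socs1a were picked after their values were seen.

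**Figure D4:**
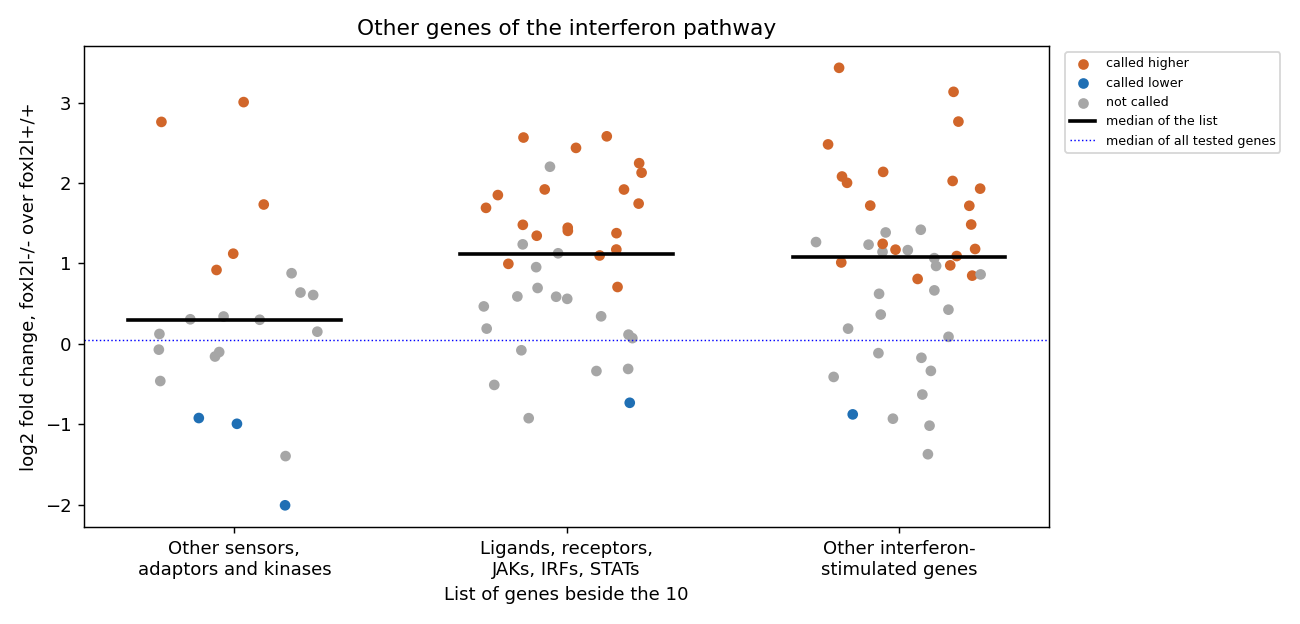
Log2 fold change (y axis, foxl2l-/- over foxl2l+/+) of each tested gene in 3 lists of pathway genes other than the 10 (x axis), coloured by call, with the median of each list as a black bar and that of all tested genes, 0.048, as a dotted line. The medians are 0.30, 1.11 and 1.08, and called genes lie mostly above 0 in the lists of signalling genes and of other interferon-stimulated genes.

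The third list holds other interferon-stimulated genes. Of 44 genes tested, 20 rose, 1 fell and 23 were not called, with a median log2 fold change of 1.08. Over all tested genes 15.7% were called higher and 15.8% lower. With 1 library left out, 16 to 19 genes of this list were called higher. The ifi27.4 gene, listed as si:dkey-188i13.7, rose from 21.8 ± 8.54 to 191 ± 23.8 CPM (SD, n = 3), which is 3.14 ± 0.27 on the log2 scale (SE; adjusted p = 7.17e-06, edgeR's quasi-likelihood test). All 3 immunoproteasome subunit genes tested rose: psmb10 from 42.4 ± 4.41 to 170.1 ± 8.19 CPM, psmb8a by 2.03 ± 0.25 and psmb9a by 0.81 ± 0.26 on the log2 scale. Psmb9a lies within the span of psmb8a on the other strand, so reads of the pair may be mixed. Its call ended without foxl2l+/+ replicate 1 or 2 or foxl2l-/- replicate 1 or 3, with an adjusted p of up to 0.12 in edgeR's test. The fish-specific gene gig2o rose from 12.8 ± 0.525 to 54.2 ± 6.05 CPM, and parp9, whose product in mammals acts with a ubiquitin ligase, rose by 1.24 ± 0.23.

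Families of interferon-stimulated genes were also counted one by one, beside 15.7% called higher and 15.8% called lower over all tested genes. Of the 6 Mx genes other than mxa, 4 rose and 2 were not called. Mxb rose by 1.09 ± 0.23, mxc by 2.14 ± 0.43 and mxe by 1.93 ± 0.40 on the log2 scale (SE). Mxg rose by 1.17 on that scale. The call of mxg ended without foxl2l+/+ replicate 2 or 3 or foxl2l-/- replicate 1 or 2, with an adjusted p of up to 0.219 in edgeR's test. The value of mxc was 2.81 without foxl2l+/+ replicate 3, and that of mxe was 2.55 without foxl2l+/+ replicate 1. Of the 6 tested GIG2 genes only gig2o rose and 5 were not called, and another 5 did not pass the low-count filter. In the IFI27 family 3 of 5 tested genes rose, in the IFI44 family 2 of 4 and in the HERC5/6 family 2 of 3. In the PARP family 3 of 4 rose. The other tested genes of these families were not called. Of the 4 tested IFIT genes 0 were called by edgeR or by DESeq2 and 0 had an unadjusted p below 0.05 in edgeR, with log2 fold changes from -0.63 to 1.39, and another 4 did not pass the low-count filter. Of the ISG15 pathway, the herc56.1 gene, listed as HERC5 and related to the human ISG15 ligase, rose from 0.356 to 3.90 CPM, which is 3.43 ± 0.74 on the log2 scale and 4.37 without foxl2l+/+ replicate 2. The gene uba7, which in mammals encodes the ISG15-activating enzyme, averaged 2.13 CPM in foxl2l+/+ against 4.74 in foxl2l-/- and was not called (adjusted p = 0.0986 in edgeR's test). The 1 gene that fell, ifi30, encodes a lysosomal thiol reductase and went from 106 to 57.8 CPM. The genes mxg, psmb9a, herc56.1, uba7 and ifi30 were picked after their values were seen.

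Scaling moved these counts little but moved all genes together. With library totals in place of TMM, 4882 genes were called higher and 2723 lower, against 3710 and 3733, and the tested genes had a median log2 fold change of 0.25. The median of the 10 genes was then 1.99, and 7 were called higher and 1 lower.

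Markers of leukocytes, which also express interferon-stimulated genes, took a small share of counts, with single genes called in both directions. The 30 blood and immune markers together took 0.0152% to 0.0196% of unscaled counts in foxl2l+/+ and 0.0134% to 0.0169% in foxl2l-/- libraries. These groups overlapped (exact two-sided permutation p = 0.6, adjusted over 2 marker lists 0.9). Once scaled by TMM, the summed marker level was lower in every foxl2l-/- library than in any foxl2l+/+ library, and that difference was not tested. Of the 24 tested, 3 rose (12.5%) and 4 fell (16.7%), and 1 of the 30 had no count in any library. These shares are near the 15.7% called higher and 15.8% called lower over all tested genes, so they are not a result about these markers. The 25 leukocyte genes among them were split off after the values were seen. They took 0.009997%, 0.0112% and 0.00941% of unscaled counts in foxl2l+/+ and 0.0120%, 0.0144% and 0.0152% in foxl2l-/- replicates 1 to 3. Those groups did not overlap, but they overlapped once scaled by TMM. Of the 19 leukocyte genes tested, 3 rose, 1 fell and 15 were not called, and the share that rose was near that of all tested genes. The pan-leukocyte gene ptprc rose by 2.36 ± 0.42, cd74b by 2.02 ± 0.32 and the immunoglobulin gene igic1s1 by 2.92 ± 0.55 on the log2 scale (SE), the last to 3.51 without foxl2l+/+ replicate 1. The T cell gene cd4-1 had a log2 fold change of -1.998 ± 0.50, with 770 of its counts in foxl2l+/+ replicate 1, and was not called without that library (-1.18, adjusted p = 0.0688 in edgeR's test). Other T cell genes went both ways and were not called. Mean CPM went from 3.89 to 8.28 for lck and from 0.587 to 0.795 for cd8a, but from 18.0 to 11.7 for zap70 and from 1.68 to 0.911 for il2rb. Among macrophage genes mpeg1.1 had 0 to 8 counts, mpeg1.2 had 59 to 120 and marco had 58 to 123, with overlapping groups, and the B cell gene cd79a had 0 to 2. In mean CPM, coro1a went from 16.8 to 13.3, lcp1 from 2.41 to 0.937 and spi1b from 3.17 to 1.899. Lyz went from 11.58 to 8.004 and mfap4 from 2.91 to 1.697. The other way, cd74a went from 18.1 to 26.3 and mpx from 1.95 to 2.56, and csf1ra also had a higher mean in foxl2l-/-. None of these genes was called. Of the 5 red cell and thrombocyte genes 3 fell and 2 (gata1a and itga2b) were not called. Slc4a1a and alas2 fell by 2.25 ± 0.31 and 2.11 ± 0.32, and hbaa1 had 1790 counts in foxl2l+/+ replicate 1 and 57 to 155 in each other library. The call of hbaa1 ended without foxl2l+/+ replicate 1. Igic1s1, cd4-1, lck, cd8a, zap70, il2rb, hbaa1, mpeg1.1, mpeg1.2, marco, csf1ra, mfap4 and cd79a were picked after their values were seen. So were coro1a, lcp1, spi1b, lyz, cd74a and mpx.

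Somatic gonad markers took 0.0118% to 0.0184% of counts in foxl2l+/+ and 0.0138% to 0.0170% in foxl2l-/- libraries, with overlapping groups (exact two-sided permutation p = 0.9). Of the 20 tested, 3 rose (15%) and 3 fell (15%), near the 15.7% higher and 15.8% lower over all tested genes. The smallest p was that of cxcl12a, with a log2 fold change of 3.96 ± 0.60 (SE), and 4.58 without foxl2l+/+ replicate 3. It had only 10, 4 and 13 counts in foxl2l+/+ libraries. Cyp17a1 rose from 14.6 to 48.1 CPM and col1a1a from 12.8 to 24.2. Col1a1b fell from 76.5 to 28.9 CPM, col1a2 from 33.1 to 15.7 and hsd3b1 from 3.38 to 0.923. The calls of col1a1a, col1a2 and hsd3b1 ended in some fits with 1 library left out. Col1a1a and col1a2 were picked after their values were seen. The part of leukocytes or somatic cells in the levels of the 10 genes was not tested.

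**Figure D5:**
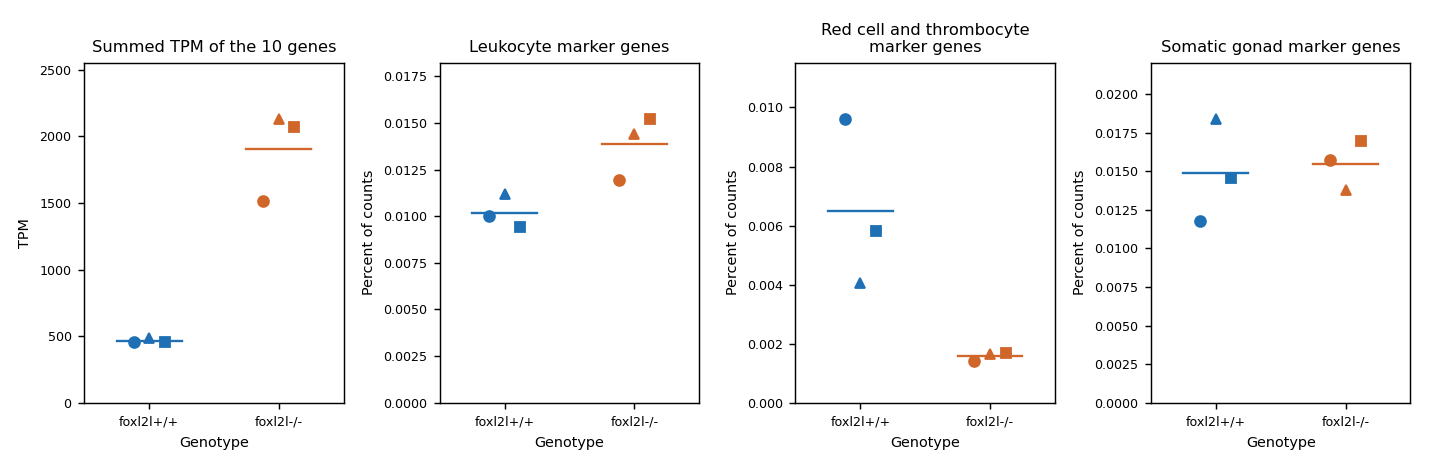
From left to right, the summed TPM of the 10 genes and the percent of counts taken by leukocyte, red cell and thrombocyte, and somatic gonad marker genes (y axes from 0) in the 3 libraries of each genotype (x axes); circles, triangles and squares are replicates 1, 2 and 3, and lines the mean. The summed TPM is 453 to 485 in foxl2l+/+ and 1518 to 2127 in foxl2l-/- libraries. The leukocyte share of unscaled counts also lies higher in all foxl2l-/- libraries, from 0.0120% to 0.0152%, but the groups overlap once scaled by TMM.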

How the data were processed

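The deposited table gives, per the file headers, total counts for each gene and library. It also gives TPM, computed by the authors. GRCz11 and bcl2fastq come from the submitters' processing notes. An aligner, a counting tool and an annotation release were not given in the sources used here. Another 12 columns of per-library values, RPKM and CPM, were not used. Full-length cDNA was made with SMART-Seq HT and libraries with Nextera XT, per the labels' protocols. Amplified reads are not independent molecules, so floors of 3 counts cover counting error only.

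Counts of all genes passing filterByExpr (23576 of 31743) were fitted by genotype with edgeR 4.0.16 in R 4.3.3 (TMM, glmQLFit, glmQLFTest, Benjamini-Hochberg at 0.05). The steps were tested on simulated data. Within each genotype every library pair differed by more than counting noise (chi-square per degree of freedom 31.6 to 114), so no library was treated as deposited more than once. That does not show separate biological replicates. Marker shares were compared by exact permutation of 3 against 3 libraries, whose smallest p is 0.1.

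The members and lists were chosen with earlier results of these data known. List symbols were matched by name and then by identifier through the reference name table: 25 of 32, 41 of 46 and 55 of 71 matched in the 3 pathway lists. The rule for named genes took all 10 genes, up to 8 genes with the smallest p from each pathway list, the members' direct partners, up to 4 from each marker list, and ddx4 and foxl2l; some are not reported here. Alternatives were RLE factors, library totals, DESeq2 1.42.0, limma-trend 3.58.1 on log2(TPM + 1) and log2(TPM + 0.1), no filter, 10 counts in 3 libraries, replicate number as a blocking factor, and leaving out single libraries in turn.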

Additional observations from a re-analysis of the deposited data

How the results depend on the processing

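Every one of the 10 genes kept the sign of its log2 fold change under all 14 alternatives. Between 6 and 7 of them were called higher and 1 lower. Of the genes of the 3 pathway lists, the lower call of jak1 ended and 0 genes were called lower in the second list under library totals, limma-trend on log2(TPM + 1) and limma-trend on log2(TPM + 0.1). Leaving out 1 library gave 0 to 2 lower calls in that list, 2 to 5 higher calls in the list of sensors and adaptors and 1 to 2 lower calls in the list of other interferon-stimulated genes. The difference in blood and immune marker share of unscaled counts, foxl2l-/- minus foxl2l+/+, was -0.00124 percentage points. It ran from -0.00197 to 0.000214 with 1 library left out, and was positive without foxl2l+/+ replicate 1. The difference in somatic gonad marker share was 0.000598 points and ran from -0.000974 to 0.00233, negative without foxl2l+/+ replicate 1 and at -0.00015 without foxl2l-/- replicate 3. The causes were not tested. Over all genes, limma-trend on log2(TPM + 1) called 5326 higher and 2652 lower, and leaving out 1 library gave 2708 to 3302 higher and 2600 to 3753 lower calls.

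With the replicate number as a replicate block, 3529 genes were called higher and 3670 lower, the 10 genes gave 6 and 1, and the second list gave 18 and 1. Deviations of same-numbered libraries from their genotype means had correlations across genes of -0.0376, 0.0502 and 0.0366 for numbers 1 to 3. Not every library correlated best with its own number. The labels do not say whether same-numbered libraries were handled together, and so few libraries per genotype cannot settle it. The genes dhx58, usp18 and rsad2 had at most 57, 298 and 168 counts in a library. Whether depth shaped their fold changes was not tested.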
